A study of Danio rerio with 4 samples.

Results

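The genes described here encode the machinery of mitosis: kinetochore proteins, the spindle checkpoint, mitotic kinases, spindle motors, condensin, the regulators of anaphase and the proteins of cytokinesis. They were chosen by name, 38 symbols in all, and 36 of them had a row in the deposited gene table under that symbol. The symbol *ube2c* stood on 2 rows, so the members gave 37 rows of the 17221 in the table. No row carried the symbols *cenpa* or *incenp*, and these are not analysed here under the rule. Messenger RNA had been sequenced from ventricles of adult zebrafish of the strain AB, 24 h after cryoinjury, a freezing injury after which the zebrafish heart regenerates. Tg(hsp70l:sflt4) fish, whose transgene puts soluble Flt4, a receptor for Vegfc cut short of its membrane anchor, under the heat-inducible *hsp70l* promoter, were compared with WT fish. Both groups were cryoinjured and then heat-shocked at 39 °C, so both carry the effects of injury and heat. Each group had 2 libraries, and each library came from a pool of 3 ventricles. No source used here says whether the pools came from separate experiments, and the p-values cover the spread among these 4 libraries alone.

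When a cell divides, condensin and topoisomerase II fold each chromosome into a compact rod, and the kinetochore is built on its centromere to hold spindle microtubules. The spindle checkpoint delays anaphase until every kinetochore is attached. The anaphase-promoting complex then marks securin and cyclin B for degradation, separase cuts the cohesin that holds sister chromatids, and the central spindle directs the contractile ring that splits the cell. Most of these genes are transcribed in a burst late in the cell cycle, so in bulk tissue their messages are known as an index of cells near mitosis. In the injured zebrafish heart, cardiomyocytes, endothelium, epicardium, fibroblasts and leukocytes can all enter the cycle. The roles given below are known from yeast and human cells unless another source is named. In a bulk sample, more cells near mitosis and more mitotic message per cell cannot be told apart.

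About 33100000 and 29000000 reads had been assigned to genes in the Tg(hsp70l:sflt4) libraries, and 34800000 and 34300000 in the WT libraries, as estimated from the rounding of the values. Cardiomyocyte markers were present in every library, with none of 10 rows at 0 and summed values of 873266 and 914501 in Tg(hsp70l:sflt4) against 1094926 and 1076934 in WT. The mitochondrial chromosome took 14.4% and 17.2% of the normalized total in Tg(hsp70l:sflt4) and 19.5% and 18.8% in WT. Normalized counts of *flt4* were 504 and 538 in Tg(hsp70l:sflt4) and 618 and 515 in WT. The transgene's own sequence was not used here. Whether its reads count on the *flt4* row was not checked, so these values are no measure of the transgene. All values below are normalized read counts as deposited, that is, reads scaled by each library's size factor and rounded.

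All 37 member rows had a log2 difference above 0, that is, a higher level in Tg(hsp70l:sflt4), where 48.7% of all 17071 genes tested did. Summed over the member rows, the normalized counts were 19567 and 14753 in Tg(hsp70l:sflt4) against 13207 and 6376 in WT. The means of these sums were 17160 ± 3404 in Tg(hsp70l:sflt4) and 9792 ± 4830 in WT (SD, n = 2 each), a 1.75-fold difference. The groups did not overlap, but the lower WT library stood further from the other WT library, at 2.07-fold, than the groups stood from each other. With 2 libraries a group, the smallest two-sided p of an exact permutation test is 0.333. The median member had a log2 difference of 0.88, against -0.01 for all genes tested, and the range was 0.03 to 1.50.

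None of the 37 rows passed the test. The test was limma on log2(value + 1), with the Benjamini-Hochberg adjustment over all genes and a threshold of 0.05. It called 0% of all genes, and the members' adjusted p reached down to 0.313. Before adjustment, p was under 0.05 in 12 member rows, all with the higher level in Tg(hsp70l:sflt4), where 5.57% of all genes were. There were 0 member rows with the lower level, where 5.45% of all genes were. Both Tg(hsp70l:sflt4) values lay above both WT values in 26 of 37 rows, against 21.8% of all genes, and in the reverse order in 0 rows, against 21.4%. In the other 11 rows the groups overlapped. The count of 12 depended on which libraries were kept. Leaving out 1 Tg(hsp70l:sflt4) library gave 1 member when it was replicate 1 (2.66% of all genes) and 4 when it was replicate 2 (1.92%). Leaving out 1 WT library gave 34 when it was replicate 1 (7.55%) and 4 when it was replicate 2 (8.18%). Without WT replicate 1, limma called 250 genes (1.47%), 13 of them members, at an adjusted p under 0.05, with WT replicate 2 as the lone WT library and assumed to vary like the others. Without WT replicate 2 it called 75 genes (0.441%) and without Tg(hsp70l:sflt4) replicate 1 it called 3 (0.0176%), none of them members. Those 13 rows were *cenpf*, *cenpe*, *mad2l1*, *tpx2*, *ncapg*, *smc2*, *smc4*, *ncapd2*, *ncaph*, *anln*, *kif23*, *kif20a* and *ube2c* (ENSDARG00000114670). The median log2 difference of the members was 0.33 when WT replicate 2 was left out and 1.48 when WT replicate 1 was.

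**Figure D1:**
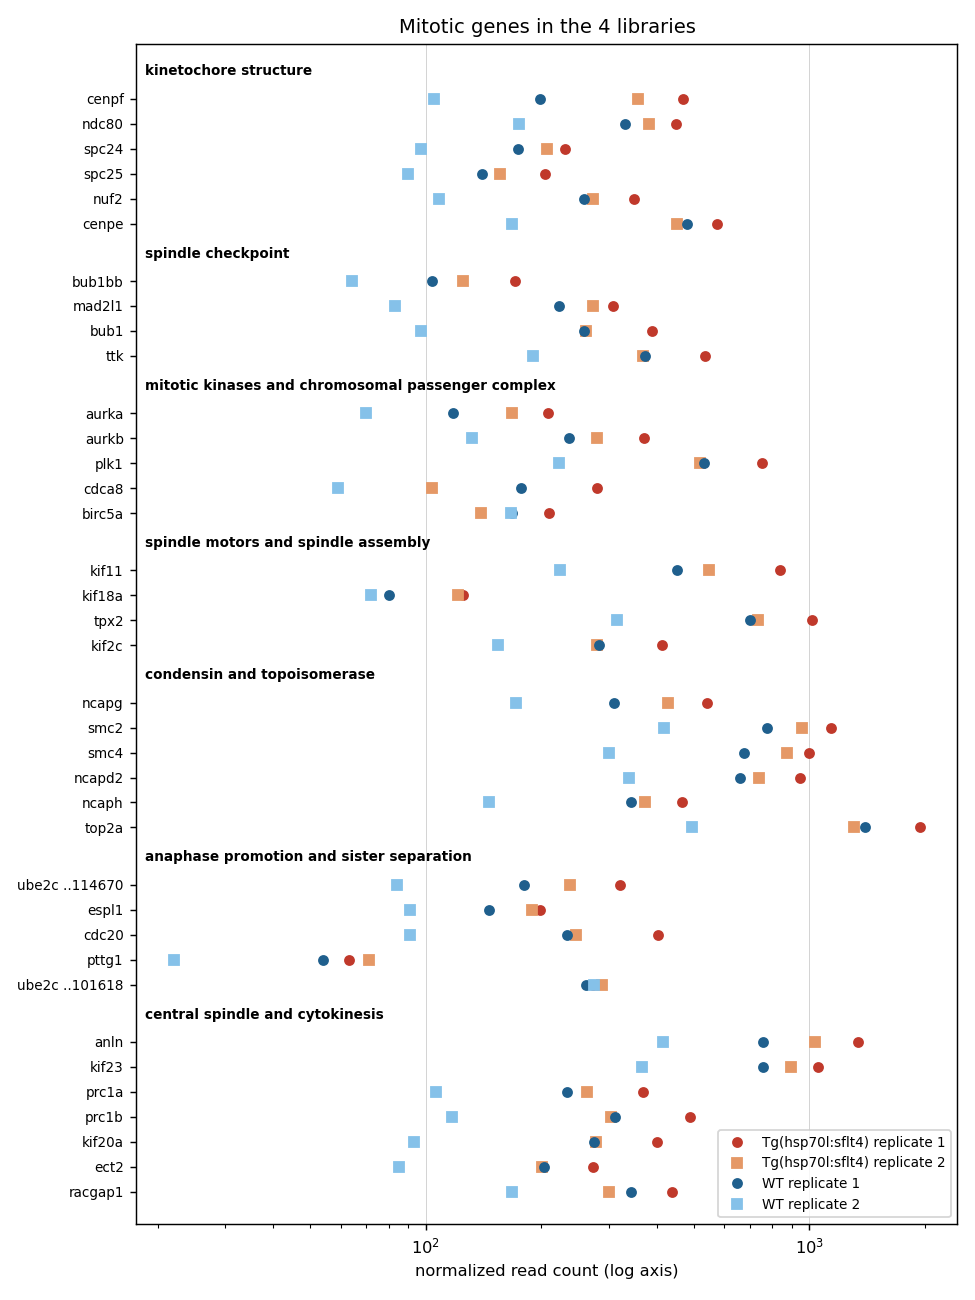
Normalized read counts (log axis) of the 37 member rows, 1 row per line and grouped by role, with 1 point for each of the 2 Tg(hsp70l:sflt4) and 2 WT libraries. WT replicate 2 is the lowest point in 35 rows, all but birc5a and ube2c ENSDARG00000101618. Tg(hsp70l:sflt4) replicate 1 is the highest in 35, all but pttg1 and ube2c ENSDARG00000101618.

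The order of the libraries was shared by most members. In 25 of 37 rows Tg(hsp70l:sflt4) replicate 1 was highest, followed by Tg(hsp70l:sflt4) replicate 2, WT replicate 1 and WT replicate 2, an order that 4.24% of all genes showed. WT replicate 2 was the lowest library in 35 rows, against 24.7% of all genes. Tg(hsp70l:sflt4) replicate 1 was the highest in 35 rows, against 16.8%. The middle libraries lay close together: Tg(hsp70l:sflt4) replicate 2 was above WT replicate 1 in 27 of 37 rows, with a median ratio of 1.12. WT replicate 1 was above WT replicate 2 by more than 1.5-fold in 34 rows, against 15.3% of all genes, with a median ratio of 2.04. Between the Tg(hsp70l:sflt4) libraries the median ratio of replicate 1 to replicate 2 was 1.32. In 24 of 37 rows the fold of WT replicate 1 over WT replicate 2 was larger than that of Tg(hsp70l:sflt4) over WT. The heat-shock gene *hsp70l* had 1191 and 647 in Tg(hsp70l:sflt4) and 461 and 4264 in WT. WT replicate 2, lowest in most mitotic rows, was highest in *hsp70l*. Tg(hsp70l:sflt4) replicate 1, highest in most mitotic rows, came next in *hsp70l*, and WT replicate 1 was lowest. The part of *hsp70l* in the result was not tested.

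Members of the outer kinetochore, which bind microtubules, were all higher in Tg(hsp70l:sflt4), and *cenpf* stood apart from the rest. This gene (chromosome 17, 32720413 to 32743249, danRer11) encodes a large coiled-coil protein of the nuclear matrix and the outer kinetochore. It had 470 and 357 normalized reads in Tg(hsp70l:sflt4) and 199 and 105 in WT. That is 413.5 ± 79.9 against 152 ± 66.5 (SD, n = 2 each), or a log2 difference of 1.50 (SE 0.35, adjusted p = 0.313), the largest among the members. The lower Tg(hsp70l:sflt4) library was 1.79-fold above the higher WT library, a wider gap than in any other member row. Relative to the median member, *cenpf* stood 0.31 and 0.30 higher (log2) in the Tg(hsp70l:sflt4) libraries and was at -0.37 and -0.19 in the WT libraries.

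The Ndc80 complex is the main microtubule coupler of the kinetochore, and its 4 subunit genes gave similar values. *ndc80* (chromosome 12, 10353333 to 10365969) had 450 and 383 in Tg(hsp70l:sflt4) against 331 and 175 in WT, a log2 difference of 0.78 (SE 0.33, adjusted p = 0.461). Its partner *nuf2* had 349 and 273 against 258 and 108. The subunits that anchor the complex to the inner kinetochore were *spc24*, with 231 and 207 against 174 and 97, and *spc25*, with 205 and 156 against 140 and 90. None of the 4 overlapped between groups, where 21.8% of all genes were higher without overlap. The folds of the 4 lay within the 1.59 of *spc25* and the 1.84 of *nuf2*. The kinetochore motor gene *cenpe*, whose product carries chromosomes to the spindle equator, did overlap. It had 575 and 451 in Tg(hsp70l:sflt4) and 479 and 168 in WT (log2 difference 0.84, SE 0.48, adjusted p = 0.566), with WT replicate 1 above Tg(hsp70l:sflt4) replicate 2. The ratio of *cenpf* to *cenpe* was 0.817 and 0.792 in Tg(hsp70l:sflt4) against 0.415 and 0.625 in WT.

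The 4 genes of the spindle checkpoint were also higher in Tg(hsp70l:sflt4), 3 of them with no overlap, against 21.8% of all genes. *bub1bb*, for the BubR1 protein that inhibits the anaphase-promoting complex, had 171 and 125 in Tg(hsp70l:sflt4) and 104 and 64 in WT (log2 difference 0.83, SE 0.35, adjusted p = 0.461). *mad2l1*, for Mad2, the checkpoint protein that captures Cdc20, had 308 and 273 against 222 and 83 (log2 difference 1.09, SE 0.47, adjusted p = 0.467). In *mad2l1* the WT libraries stood 2.66-fold apart and the Tg(hsp70l:sflt4) libraries 1.13-fold. The kinase genes were less separated. *bub1*, for the kinase that recruits checkpoint proteins and shugoshin, had 388 and 262 against 259 and 97, so its middle libraries differed by 3 normalized reads. *ttk*, for the Mps1 kinase that starts the checkpoint signal, had 536 and 368 against 373 and 190 and overlapped (log2 difference 0.74, SE 0.37, adjusted p = 0.522).

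Among the mitotic kinases, *aurka*, for the Aurora A kinase of the spindle poles, had 208 and 168 in Tg(hsp70l:sflt4) and 118 and 70 in WT (log2 difference 1.03, SE 0.33, adjusted p = 0.388). *plk1*, for the Polo-like kinase that drives entry into mitosis and spindle formation, had 755 and 519 against 532 and 222. Its groups overlapped by the small margin between 519 and 532. The chromosomal passenger complex, which corrects faulty attachments and then moves to the central spindle, gave unlike values for its genes. Its kinase gene *aurkb* had 371 and 279 in Tg(hsp70l:sflt4) and 236 and 132 in WT (log2 difference 0.86, SE 0.33, adjusted p = 0.436), without overlap. *cdca8*, for Borealin, had 279 and 104 against 177 and 59. It was high in the first library of each group and low in the second, and its difference had the largest error of any member (0.73, SE 0.67, adjusted p = 0.714). The ratio of *aurkb* to *cdca8* was 1.33 and 2.68 in Tg(hsp70l:sflt4) and 1.33 and 2.24 in WT.

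*birc5a*, for the Survivin subunit of the same complex, was the member with the smallest difference. It had 209 and 139 normalized reads in Tg(hsp70l:sflt4) and 168 and 167 in WT, so the WT values fell between the Tg(hsp70l:sflt4) values (log2 difference 0.03, SE 0.28, adjusted p = 0.980). It lacked the low value of WT replicate 2 that the other passenger genes shared. The row named CABZ01058261.1 carries the UniProt gene name incenp, the scaffold of the complex, and lies outside the rule since its symbol differs. It had 912 and 724 in Tg(hsp70l:sflt4) against 581 and 303 in WT (log2 difference 0.95, SE 0.33, adjusted p = 0.401).

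Of the spindle motor and assembly genes, *kif11* encodes the Eg5 motor that pushes spindle poles apart. It had 841 and 548 in Tg(hsp70l:sflt4) and 453 and 224 in WT, or 694.5 ± 207 against 338.5 ± 162 (SD, n = 2 each; log2 difference 1.09, SE 0.38, adjusted p = 0.410). *kif18a*, for a motor that dampens chromosome movement, gave even replicates. Its values were 125 and 121 in Tg(hsp70l:sflt4) and 80 and 72 in WT, a log2 difference of 0.69 (SE 0.26, adjusted p = 0.434). *tpx2*, for the activator of Aurora A that nucleates spindle microtubules, had 1019 and 736 against 701 and 315. *kif2c*, for the microtubule-depolymerising motor MCAK, had 412 and 280 against 283 and 154, with WT replicate 1 just above Tg(hsp70l:sflt4) replicate 2 (log2 difference 0.70, SE 0.36, adjusted p = 0.529).

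**Figure D2:**
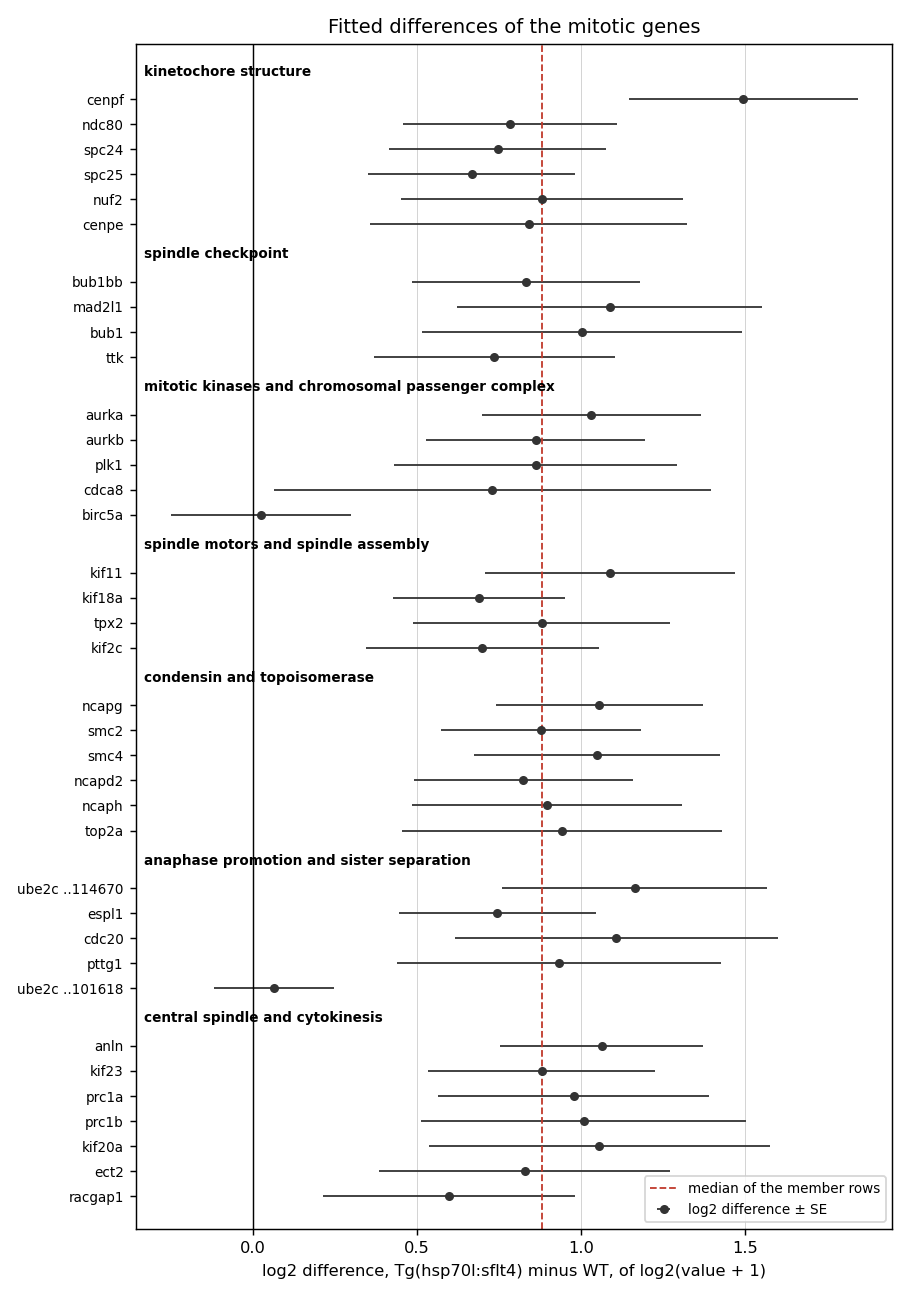
Fitted log2 difference, Tg(hsp70l:sflt4) minus WT, of log2(value + 1) for each of the 37 member rows, with bars of 1 SE from limma and the members grouped by role; the dashed line is their median of 0.88. cenpf lies furthest right at 1.50, birc5a and 1 ube2c row lie near 0, and the remaining rows lie between 0.60 and 1.16.

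All 5 condensin subunit genes were higher in Tg(hsp70l:sflt4) with no overlap between groups, against 21.8% of all genes. The folds of the 5 were close to each other. The ATPase core, which both condensin complexes share, is made by *smc2* and *smc4*. *smc2* had 1142 and 960 in Tg(hsp70l:sflt4) and 776 and 417 in WT (log2 difference 0.88, SE 0.31, adjusted p = 0.407). *smc4* had 998 and 878 against 677 and 301. The other subunits belong to condensin I, which acts after the nuclear envelope breaks down. *ncapg* had 540 and 428 against 309 and 172 (log2 difference 1.06, SE 0.32, adjusted p = 0.365). *ncapd2* had 946 and 742 against 661 and 338, and *ncaph*, for the kleisin subunit that joins the ring, had 466 and 373 against 342 and 146. The condensin I folds ran from the 1.77 of *ncapd2* to the 2.08 of *ncapg*. *top2a*, for the topoisomerase that untangles sister DNA, had 1948 and 1313 in Tg(hsp70l:sflt4) and 1395 and 496 in WT. Its groups overlapped, and its WT libraries stood 2.81-fold apart (log2 difference 0.94, SE 0.49, adjusted p = 0.533). The ratio of *smc2* to *smc4* was 1.14 and 1.09 in Tg(hsp70l:sflt4) against 1.15 and 1.39 in WT, so WT replicate 2 differed from the other libraries in this ratio.

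The regulators of anaphase held the clearest contrast between neighbouring rows. Of the rows named *ube2c*, the gene for the ubiquitin-conjugating enzyme of the anaphase-promoting complex, ENSDARG00000114670 lies on chromosome 6 at 55287823 to 55297274. It had 322 and 238 normalized reads in Tg(hsp70l:sflt4) and 180 and 84 in WT (log2 difference 1.16, SE 0.40, adjusted p = 0.406). ENSDARG00000101618 lies 2.2 kb away at 55299511 to 55309190 on the same strand. It had 273 and 289 in Tg(hsp70l:sflt4) and 262 and 275 in WT (log2 difference 0.07, SE 0.18, adjusted p = 0.922), and no library stood apart. The reference table of gene names calls the first row UBE2C and the second DNTTIP1, whereas the deposited table gives the UniProt protein name of the enzyme only to the second. The row with values like those of the other mitotic genes is the one the reference table calls UBE2C. Without the other row the members with an unadjusted p under 0.05 were 12 of 36, and the median log2 difference was 0.88, a choice made after the values were seen.

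*cdc20*, for the activator that the checkpoint holds back, had 404 and 247 in Tg(hsp70l:sflt4) and 234 and 91 in WT. *espl1*, for separase, had 199 and 189 against 146 and 91 (log2 difference 0.75, SE 0.30, adjusted p = 0.453), with the Tg(hsp70l:sflt4) libraries close together. *pttg1*, for securin, the inhibitor of separase, had the lowest values of the members, 63 and 71 against 54 and 22. It was the member in which Tg(hsp70l:sflt4) replicate 2 exceeded replicate 1, apart from the ENSDARG00000101618 row.

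The genes of the central spindle and cytokinesis were all higher in Tg(hsp70l:sflt4), with no overlap in 4 of 7, against 21.8% of all genes. *anln* (chromosome 19, 35433155 to 35450857), for anillin, the scaffold of the contractile ring, had 1341 and 1033 in Tg(hsp70l:sflt4) and 760 and 416 in WT. That is 1187 ± 218 against 588 ± 243 (SD, n = 2 each; log2 difference 1.06, SE 0.31, adjusted p = 0.357). Centralspindlin, which bundles microtubules between the separating chromosomes, is made of the *kif23* and *racgap1* products, and these genes differed in how they separated. *kif23* had 1053 and 895 in Tg(hsp70l:sflt4) and 758 and 366 in WT (log2 difference 0.88, SE 0.35, adjusted p = 0.443). *racgap1* had 440 and 301 against 343 and 168 and overlapped, with the smallest difference of this group (0.60, SE 0.39, adjusted p = 0.608). The ratio of *kif23* to *racgap1* was 2.39 and 2.97 in Tg(hsp70l:sflt4) against 2.21 and 2.18 in WT.

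*ect2*, for the exchange factor that activates RhoA at the division plane, had 273 and 201 in Tg(hsp70l:sflt4) and 203 and 85 in WT. Its groups overlapped by 2 normalized reads. *kif20a*, for a motor that brings Aurora B to the central spindle, had 400 and 278 against 274 and 93 and did not overlap. Zebrafish carry a pair of genes for Prc1, the protein that crosslinks antiparallel microtubules. *prc1a* had 369 and 263 in Tg(hsp70l:sflt4) against 234 and 106 in WT, without overlap, and *prc1b* had 488 and 305 against 312 and 117, with overlap. The folds of these paralogues were 1.97 and 2.01, and the ratio of *prc1a* to *prc1b* was 0.756 and 0.862 in Tg(hsp70l:sflt4) and 0.750 and 0.906 in WT. The ratio thus differed more between libraries of a group than between groups. Whether reads were divided between paralogues was not checked here, so their separate values are uncertain.

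**Figure D3:**
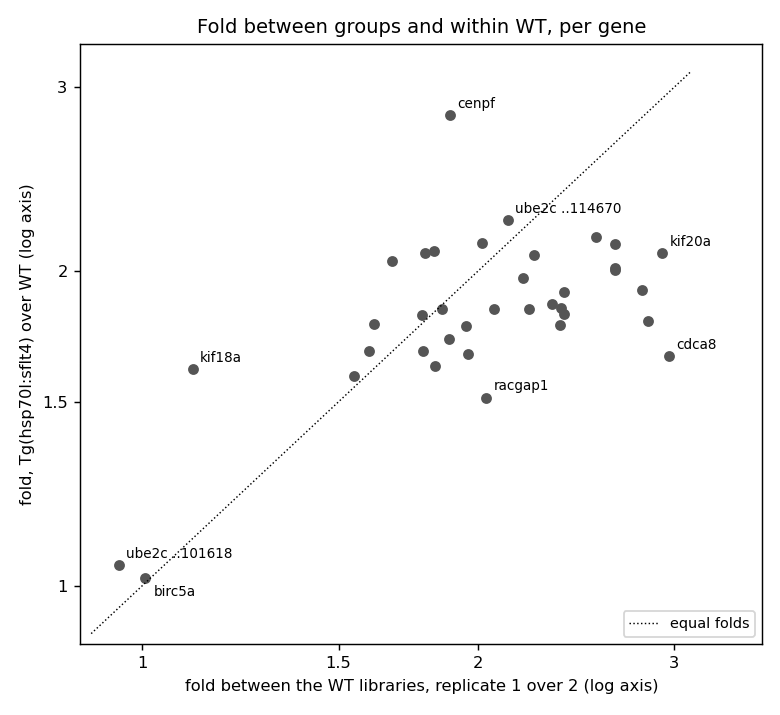
Each point is 1 member row: across, the fold between WT replicate 1 and WT replicate 2 (log axis); upward, the fitted fold of Tg(hsp70l:sflt4) over WT (log axis); the dotted line marks equal folds. In 24 of 37 rows the point lies below the line, with cdca8 and kif20a furthest right, and cenpf and kif18a lie well above it.

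Across roles the members differed little from each other. The median log2 difference was 0.81 for kinetochore structure, 0.92 for the checkpoint, 0.86 for kinases and passenger genes, 0.79 for spindle motors and assembly, 0.92 for condensin and topoisomerase, 0.93 for anaphase and 0.98 for the central spindle and cytokinesis. Of the 37 rows, 34 lay within 0.3 of the median member on the log2 scale. The exceptions were *cenpf* above it and *birc5a* and the ENSDARG00000101618 row below it. The fold was over 1.5 in 35 rows and over 2 in 12. For all genes tested, the 5th to the 95th percentile of the log2 difference ran from -0.90 to 0.79. No difference between roles was tested.

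The members sit on 19 chromosomes, with at most 4 rows on any. The closest pair apart from the *ube2c* rows was *ndc80* and *top2a*, 340.8 kb apart on chromosome 12. In the deposited annotation, 16 of 37 member rows carried the Gene Ontology term cell cycle, 13 the term mitotic nuclear division and 8 the pathway term Cell cycle, against 275, 99 and 127 of all 17221 rows. Coordinates of 5 member rows overlapped another row of the table, on the opposite strand for *kif18a*, *ncapg*, *kif20a* and *racgap1* and on the same strand for *tpx2*. The library kit was stranded, but no source used here says whether counting used the strand. For *tpx2* the strand could not separate the partners in any case. The overlaps were taken from the start and end of each gene, not from exons. How reads in an overlap were assigned was not checked, so the values of these rows are uncertain to that extent. The partner of *kif20a* is *cdc23*, an anaphase-promoting complex gene, with 326 and 327 in Tg(hsp70l:sflt4) and 343 and 348 in WT. The partner of *tpx2* is *mylk2*, a myosin light chain kinase gene, with 5009 and 4631 against 6869 and 7891.

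Mitotic genes outside the 38 symbols were counted from lists that hold 143 symbols, of which 113 rows were tested. Of these, 93 had the higher mean in Tg(hsp70l:sflt4), against 48.7% of all genes. Without overlap, 61 were higher and 8 lower, against 21.8% and 21.4% of all genes. At an unadjusted p under 0.05, 25 were higher and 1 lower, against 5.57% and 5.45%, and 0 were called. The medians nearest to that of the members came from 3 lists. The median log2 difference was 0.80 for 24 other spindle and motor genes, 0.75 for 13 other checkpoint, passenger and kinase genes and 0.63 for 24 other kinetochore genes. Among them *kif20ba*, for a relative of Kif20a, had 519 and 450 in Tg(hsp70l:sflt4) and 291 and 116 in WT. *kif4*, for a chromosome-bound motor that works with condensin, had 531 and 357 against 278 and 159. *plk4*, the kinase gene for centriole duplication, had 189 and 223 against 105 and 103. *mis12*, for a subunit of the complex that joins the inner and the outer kinetochore, had 172 and 147 against 104 and 65. *cenpo*, for a protein of the inner kinetochore, had 58 and 62 against 32 and 18.

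Medians nearer to that of all genes came from the remaining lists. The median was 0.07 for 22 other condensin and cohesin genes and 0.02 for 20 other anaphase-promoting complex genes. *rad21a*, for the cohesin subunit that separase cuts, had 5421 and 5752 in Tg(hsp70l:sflt4) and 5285 and 5297 in WT. *smc3*, another cohesin subunit gene, had 3403 and 3189 against 3409 and 3044. *cdc27*, for a core subunit of the anaphase-promoting complex, had 1443 and 1536 against 1383 and 1585. These values differed little in any library. Within the same lists, some genes had values like those of the members. In the condensin and cohesin list, the condensin II genes *ncaph2*, *ncapg2* and *ncapd3* had log2 differences of 0.74, 0.76 and 0.75, with overlap in *ncapd3*. For *esco2* and *cdca5* they were 0.78 and 0.77. Of the 22 rows of that list, 16 had the higher mean in Tg(hsp70l:sflt4), against 48.7% of all genes, and 6 the lower. *mki67*, for the proliferation marker Ki-67, had 2008 and 1333 against 1287 and 524, *ncaph2*, for the kleisin of condensin II, had 433 and 414 against 319 and 201, and *fbxo5*, for the inhibitor Emi1, had 143 and 84 against 64 and 32. *fzr1b*, for the alternative activator Cdh1, was the gene lower at an unadjusted p under 0.05, with 327 and 365 against 526 and 477 (log2 difference -0.53, SE 0.17, adjusted p = 0.381). The 10 other cytokinesis genes had a median of 0.16.

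**Figure D4:**
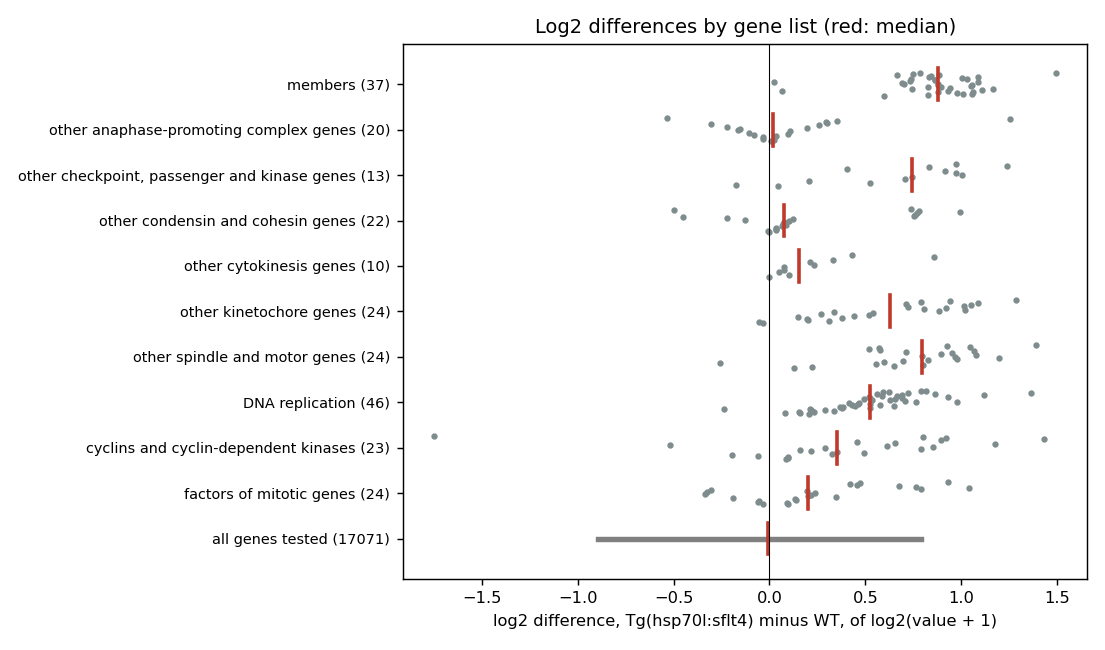
Log2 differences, Tg(hsp70l:sflt4) minus WT, of log2(value + 1) by gene list, with 1 grey point per gene, the number of rows tested in brackets and the median in red; for all genes the grey bar spans the 5th to the 95th percentile (-0.90 to 0.79). The medians are 0.88 for the members, 0.53 for DNA replication and 0.02 for other anaphase-promoting complex genes.

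DNA replication genes, which act in the S phase before mitosis, were higher in Tg(hsp70l:sflt4) too, but shared only part of the order of the libraries. Of 46 rows, 45 had the higher mean in Tg(hsp70l:sflt4), with a median log2 difference of 0.53. Without overlap, 41 were higher, against 21.8% of all genes. At an unadjusted p under 0.05, 24 were higher, against 5.57% of all genes. Replicate 1 over replicate 2 of Tg(hsp70l:sflt4) had a median ratio of 1.32 among mitotic members and 0.93 among replication genes. Tg(hsp70l:sflt4) replicate 1 was the highest library in 35 of 37 mitotic rows and in 8 of 46 replication rows. WT replicate 1 over replicate 2 had a median ratio of 2.04 among mitotic members and 1.18 among replication genes. The order of libraries that 25 of 37 mitotic rows shared was found in 6 of 46 replication rows. It was also found in 17 of 24 rows of other spindle and motor genes, against 4.24% of all genes. WT replicate 2 was the lowest library in 35 of 37 mitotic rows and in 33 of 46 replication rows, against 24.7% of all genes. Among other spindle and motor genes it was lowest in 23 of 24 rows. *mcm5*, a subunit gene of the replicative helicase, had 1810 and 2088 in Tg(hsp70l:sflt4) against 1226 and 1027 in WT. The difference between these lists was not tested.

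**Figure D5:**
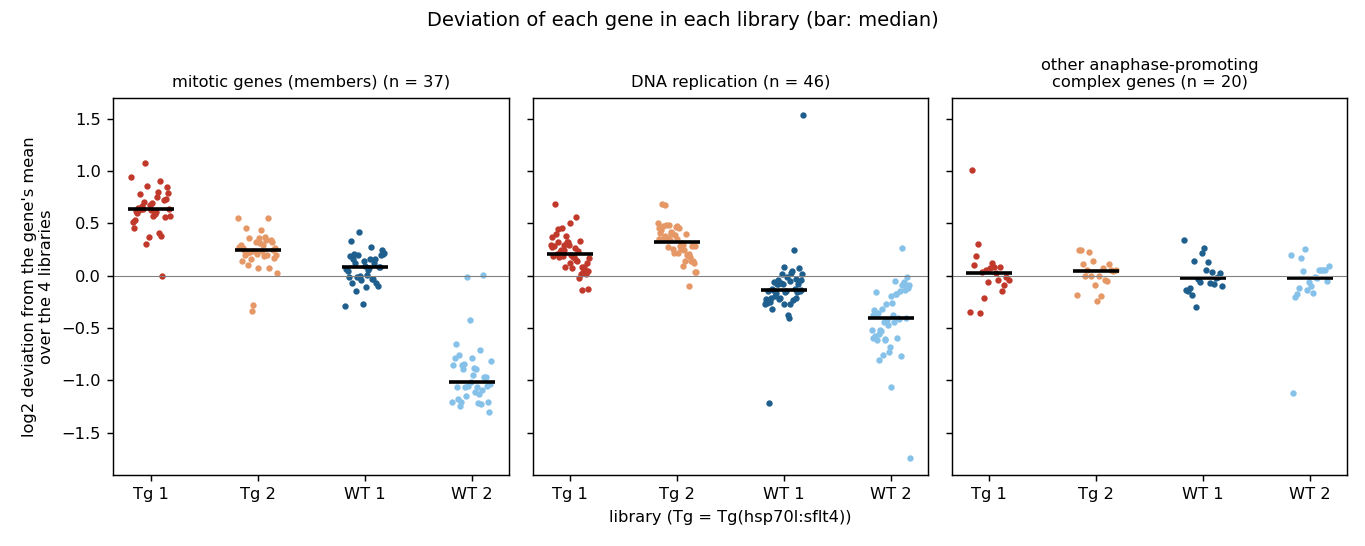
Log2 deviation of each gene from its own mean over the 4 libraries, for the 37 member rows, 46 DNA replication rows and 20 other anaphase-promoting complex rows; 1 point per gene and library, black bars are medians. The member medians are 0.63 and 0.25 in Tg(hsp70l:sflt4) and 0.08 and -1.02 in WT; the replication medians are 0.20 and 0.32 against -0.14 and -0.41.

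The list of cyclins, cyclin-dependent kinases and their inhibitors and regulators had a median log2 difference of 0.35 over 23 rows. Of these, 19 had the higher mean in Tg(hsp70l:sflt4), against 48.7% of all genes, and 4 the lower. Every cyclin row tested was among the higher. The lower rows were the inhibitor genes *cdkn1ca*, *cdkn1bb* and *cdkn1a* and the kinase gene *cdk4*. The inhibitor genes *cdkn1ba* and *cdkn2c* were higher. At an unadjusted p under 0.05, 7 rows were higher and 2 (*cdkn1ca* and *cdkn1bb*) lower, against 5.57% and 5.45% of all genes. *cdk1*, for the kinase that starts mitosis, had 1197 and 896 in Tg(hsp70l:sflt4) against 758 and 277 in WT, and its cyclin gene *ccnb1* had 664 and 525 against 379 and 125. The groups overlapped in the related cyclin genes *ccnb2*, with 91 and 51 against 70 and 42, and *ccnb3*, with 150 and 119 against 128 and 46. The inhibitor gene *cdkn1ca*, for p57, was lower, with 99 and 62 against 227 and 311 (log2 difference -1.75, SE 0.33, adjusted p = 0.272). Genes for transcription factors known to act on mitotic genes had a median of 0.20 over 24 rows. Of these, 3 were higher at an unadjusted p under 0.05, against 5.57% of all genes. *foxm1*, an activator of mitotic genes, had 313 and 210 in Tg(hsp70l:sflt4) and 199 and 77 in WT. Another activator gene, *mybl2b*, had 315 and 225 against 202 and 137, whereas its paralogue *mybl2a* had 116 and 89 against 124 and 133. *e2f8*, for an E2F repressor, had 508 and 458 against 261 and 244 (log2 difference 0.93, SE 0.17, adjusted p = 0.272), with even replicates. *lin9*, for a constant subunit of a complex that acts on mitotic promoters, had 310 and 397 against 300 and 338.

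Markers of cell types that a ventricle sample could hold differed among libraries as well. No row of any of the 8 marker lists was at 0 in any library, and 0 rows were called. The table held no row with a mean under 4.25, so the absence of rows at 0 says little. Some markers had no row: the 12 lymphocyte symbols gave 6 rows and the 9 neutrophil symbols 8. For cardiomyocyte markers, summed above, 5 of 10 rows were lower and 1 higher without overlap, against 21.4% and 21.8% of all genes. Summed macrophage markers (13 rows) were 62183 and 83957 in Tg(hsp70l:sflt4) against 48710 and 52657 in WT. The row with the largest fold, *grn1*, had 21140 and 27956 against 13171 and 7444. Without this row the macrophage sums overlapped between the groups. Of the 13 rows, 3 were higher and 0 lower at an unadjusted p under 0.05, against 5.57% and 5.45% of all genes. Without overlap, 5 of the 13 rows were higher and 3 (*csf1ra*, *cd74a* and *cd74b*) lower, against 21.8% and 21.4% of all genes. Summed neutrophil markers (8 rows) were 12307 and 18130 against 11897 and 13244, with 2 rows higher and 1 lower at that p. Summed epicardial markers (8 rows) were 134872 and 142752 against 160284 and 112960, and summed endothelial markers (10 rows) 44963 and 43863 against 50066 and 44209. Erythrocyte markers (11 rows) summed to 40363 and 79785 against 85937 and 48759. Lymphocyte markers (6 rows) summed to 108 and 119 against 124 and 182, and thrombocyte markers (5 rows) to 3788 and 4535 against 4915 and 6202. In the summed macrophage and neutrophil markers Tg(hsp70l:sflt4) replicate 2 was the highest library, whereas most mitotic genes were highest in replicate 1. Summed epicardial markers were lowest in WT replicate 2 but highest in WT replicate 1. Most of that sum came from *krt8*, with 104127 and 111991 in Tg(hsp70l:sflt4) against 119171 and 84537 in WT. WT replicate 2 was lowest in 5 of the 8 epicardial rows, against 24.7% of all genes. Of these 8 rows, 1 was higher and 2 lower without overlap, against 21.8% and 21.4% of all genes. By the same count, 2 endothelial rows were higher and 2 lower, and 2 neutrophil rows higher and 1 lower. For lymphocyte rows it was 1 and 2, for erythrocyte rows 0 and 4, and for thrombocyte rows 0 and 3. The part of each cell type in the result was not tested.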

How the data were processed

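Messenger RNA libraries of 2 Tg(hsp70l:sflt4) and 2 WT samples were compared. The deposited values are scores: by the pattern of the values themselves, reads that the authors scaled with 1 size factor for each library and then rounded, in a table with danRer11 coordinates. Per the submitters' processing notes, FastQC, Trimmomatic 0.38, featureCounts 1.6.3 of Subread and DESeq2 1.18.1 were used, in no stated role; no source used here names the aligner. No row had a mean under 4.25 over the 4 libraries. Size factors (1.10, 0.885, 1.02 and 1.01 for Tg(hsp70l:sflt4) and WT replicates 1 and 2) were estimated from the pattern that rounding leaves and give the read numbers; whole reads could not be recovered where rounding merged them, so no count test was run. The counting error of a member's value was 2.16% to 21.2% (median 6.16%); it covers counting error only.

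All genes with a mean of at least 10 were fitted with limma 3.58.1 (R 4.3.3; trend and robust moderation, no covariate) on log2(value + 1), a scale that understates folds of low genes, and p-values were Benjamini-Hochberg adjusted over 17071 genes. The fit was tested on simulated data with independent noise for each gene and changes larger than that of any member. That test therefore does not cover differences of the size reported here. The members, role groups, lists and the rule for named genes (in each role, the 2 smallest and the largest p in full; in other lists, up to 4 of the smallest p) were chosen with earlier results of these data known. Some genes outside that rule (*cdk1*, *ccnb1*, *ccnb2*, *ccnb3*, *cdkn1bb*, *cdkn1a*, *cdkn1ba*, *cdkn2c*, *cdk4*, *ncapg2*, *ncapd3*, *cdca5*, *rad21a*, *smc3*, *cdc27*, *foxm1*, *mybl2b*, *mybl2a*, *lin9* and the overlap partners) were named after their values were seen. The genes *hsp70l* and *flt4*, the CABZ01058261.1 row and the single cell type markers were also named outside that rule. Alternatives covered scaling, pseudocount, filter, limma-voom, a replicate block and leaving out each library. Reference names matched 16648 of 17221 identifiers and all 37 member rows. Sequences and promoter motifs were not analysed here.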

Additional observations from a re-analysis of the deposited data

How the results depend on the processing

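Under equal totals, upper-quartile scaling, a pseudocount of 5, a mean of at least 50, no filter on the mean, and limma-voom, no gene was called and each of the 37 member rows kept its direction. At an unadjusted p under 0.05, 9 to 18 of them were higher, against 5.53% to 9.28% of all genes. In the fit reported it was 12, against 5.57%. The count of 18 came from equal totals (9.28% of all genes) and from limma-voom (9.19%). Equal totals moved the median of all genes from -0.01 to 0.10 (log2) and the division of genes at an unadjusted p under 0.05 from 951 higher and 930 lower to 1584 and 548; the median member moved with it, to 0.99. The replicate numbers are not said to pair libraries, and there are only 2 of each: the difference of replicates 1 and 2 in Tg(hsp70l:sflt4) correlated with that in WT at r = 0.14 across genes. With the replicate block, 33 of 37 members were higher at an unadjusted p under 0.05 (6.91% of all genes) and 0 genes were called. Leaving out single libraries gave 0 to 250 called genes, 1 to 34 members at an unadjusted p under 0.05, 0 of them lower, 27 to 36 members higher without overlap (30.6% to 39.0% of all genes), and a median log2 difference of 0.33 to 1.48. The log2 difference of *cdca8* ran from -0.054, without WT replicate 2, to 1.51, and that of *birc5a* from -0.27, without Tg(hsp70l:sflt4) replicate 1, to 0.32. The cause was not tested.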
